A study of Equus caballus with 3 samples.

Results

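Retinoic acid signalling in equine mesenchymal stromal cells (MSCs) was examined through 9 named genes of the pathway, chosen by symbol with earlier results of these data in view. They were the carrier genes *CRABP1* and *CRABP2*, the synthesizing enzymes *ALDH1A1*, *ALDH1A2* and *ALDH1A3*, the receptors *RARA*, *RARB* and *RARG*, and the retinol uptake gene *STRA6*. Of the 9, 8 had a row in the deposited matrices, which held 29927 genes in all, and *CRABP1* had none under that symbol and was not analysed here. The cells came from a single healthy warmblood mare aged 10 years and were untreated. From this animal 1 primary culture was grown from each of 3 sources, namely peripheral blood (PB), adipose tissue (AT) and bone marrow (BM). Each was expanded briefly and put through 1 droplet single-cell RNA-seq library (10x Genomics 3′ version 2). The sources follow the sample titles, while a second label of all 3 libraries names mononuclear cells from blood. Source, culture and library cannot be told apart, since each source had 1 library. No test was therefore run, and intervals are 95% counting intervals (exact Poisson for sums of unique molecular identifiers (UMIs), Clopper-Pearson for shares of cells) that cover counting error only.

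Cells make retinoic acid from vitamin A in a pair of oxidation steps. Retinol enters the cell, in part through STRA6, and is oxidized reversibly to retinaldehyde by alcohol and short-chain dehydrogenases, and the ALDH1A enzymes then oxidize retinaldehyde irreversibly to retinoic acid. CRABP2 carries retinoic acid to the nuclear receptors RARA, RARB and RARG, which bind DNA with an RXR partner, and the CYP26 enzymes clear it. In mesenchymal cells the pathway is known for its part in limb and skeletal patterning and in the choice between bone, cartilage and fat.

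Barcodes were kept where their total lay between 2500 and 15000 UMIs and no more than 3% of it came from the mitochondrial chromosome, which left 5403 AT-, 5580 BM- and 5318 PB-derived MSCs with medians of 7291, 6874.5 and 7750 UMIs. The kept cells held 39980656, 40239295 and 41622445 UMIs, so that 3 UMIs correspond to 0.0750, 0.0746 and 0.0721 CPM (UMIs of a gene per 1000000 UMIs of its source). Stromal markers were present in every source (6 genes summing to 7919, 3963 and 6961 CPM in AT, BM and PB), most of it *COL1A1* (collagen I, at 6259, 2700.4 and 6036 CPM), while *THY1*, the gene of the surface marker CD90, had 665, 531 and 90.5 CPM. The leukocyte gene *PTPRC* and the epithelial gene *EPCAM* had no UMI in any kept cell, and haematopoietic and endothelial markers had at most 5 UMIs each. The keratin gene *KRT8* had 45.4, 1.22 and 0.0240 CPM in AT, BM and PB. Only 72 to 77 kept barcodes per library were also kept in another library. However, all 5318 kept PB barcodes also occurred in the AT matrix, and of the 6155 AT barcodes that fell under the lower limit 5711 were present in the PB matrix. These low AT barcodes are not among the kept cells, but 4804 of the 5711 entered the alternative with a lower limit of 500 UMIs. Leaving out every kept barcode that another library also kept or held with more UMIs removed 110, 81 and 78 cells and changed no count of members or of wider-list genes past 2-fold given here, while the shares of all genes moved at most from 5.98% to 6.02%.

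*CRABP2*, the retinoic acid carrier on chromosome 5 (EquCab3.0, forward strand), was expressed in all sources and was highest in PB. Its expression was 115 CPM (111 to 118) in AT-, 191 CPM (187 to 195) in BM- and 528 CPM (521 to 535) in PB-derived MSCs, none of the intervals overlapping. PB was 2.76-fold (2.69 to 2.84) above BM and 4.61-fold (4.46 to 4.76) above AT, while BM was 1.67-fold (1.61 to 1.73) above AT. These ratios are over all kept cells, and the level moved with depth. In the lowest of 10 classes of cells ranked by total UMIs, AT, BM and PB had 73.6, 131 and 339 CPM. In the highest class they had 116, 193 and 390 CPM. The gene was also more widely detected in PB, and at least 1 UMI was seen in 40.5% (39.2 to 41.9%) of the AT-, 49.7% (48.4 to 51.0%) of the BM- and 88.1% (87.2 to 88.9%) of PB-derived MSCs. After every cell was thinned to 2500 UMIs, the shares were 20.6%, 29.8% and 64.6%. A PB-derived cell with *CRABP2* held on average 4.69 UMIs of it, against 2.77 in BM and 2.09 in AT, and the most in a single cell was 25, 20 and 12 UMIs. No group of kept cells was known to lack *CRABP2*, so the background that ambient RNA adds to its shares was not measured.

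Osteoblast markers shared the PB maximum of *CRABP2*, but the *IFITM5* intervals of AT and BM overlapped (BM over AT 1.08, 0.95 to 1.22). All 3 genes of that list had their highest level in PB, with *ALPL* (alkaline phosphatase) at 2.88, 96.0 and 326 CPM, *RUNX2* at 0.825, 4.15 and 8.96 CPM and *IFITM5* at 12.5, 13.4 and 35.1 CPM in AT, BM and PB. Summed, the list had 16.2, 114 and 369.6 CPM, and no marker of it was at 0. Within PB, a cluster of 353 cells with *IFITM5* among its leading genes had *CRABP2* at 372 CPM (350 to 396), against 539 CPM in the other PB cells. *ALDH1A3* went the other way, at 106 CPM (93.9 to 119) against 73.6 CPM. *RARG* had 98.1 CPM (86.7 to 110) against 91.8 CPM, and *RARA* 34.9 CPM (28.2 to 42.6) against 40.6 CPM. On 16 and 10 UMIs, *RARB* had 5.81 against 4.01 CPM and *STRA6* 3.63 against 1.44 CPM. The part of these markers in the differences of the members was not tested.

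*ALDH1A3*, which encodes a retinaldehyde dehydrogenase (chromosome 1, forward strand), followed another order, with BM and PB side by side and AT far lower. It had 5.35 CPM (4.66 to 6.12) in AT-, 77.3 CPM (74.6 to 80.1) in BM- and 75.7 CPM (73.1 to 78.4) in PB-derived MSCs. BM was 14.4-fold (12.6 to 16.7) and PB 14.1-fold (12.3 to 16.3) above AT. With the lower limit set to 500 UMIs in all 3 libraries, which gave 10493 AT barcodes (4804 of them low ones that the PB matrix also held), 5888 BM and 5632 PB barcodes, the log2 ratios of CPM + 1 over AT fell from 3.62 to 2.57 for BM and from 3.59 to 2.52 for PB. Between PB and BM the ratio over all kept cells was 0.98, with an interval that held 1 (0.93 to 1.03), and equality over animals cannot be inferred from it. In cells called as cell cycle phase G1, BM had 102 CPM (98.2 to 106) and PB 85.7 CPM (82.2 to 89.4). In the lowest of 10 depth classes BM had 130 and PB 78.4 CPM, and in the highest 45.6 and 77.4 CPM. At least 1 UMI was seen in 3.09% (2.65 to 3.59%) of the AT-, 25% (23.9 to 26.2%) of the BM- and 25.9% (24.7 to 27.1%) of PB-derived MSCs. At 2500 UMIs per cell the shares were 1.28%, 13.9% and 13.0%. In BM a cluster of 653 cells, described further on, had the lowest share of the BM clusters. A UMI was seen in 3.06% (1.88 to 4.69%) of its cells at a median of 9468 UMIs, against 6874.5 in all BM cells. What ambient RNA adds to the BM share was not measured. Although most cells of BM and PB showed none, 337 BM- and 364 PB-derived cells had at least 3 UMIs, up to 23 and 27 in a cell, whereas 9 AT-derived cells did.

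The other enzymes of this step were at or near 0. No *ALDH1A1* UMI (chromosome 23) was counted in 5403, 5580 and 5318 cells, which allows shares of cells with a UMI of up to 0.0555%, 0.0538% and 0.0564% when 3 cells are taken as the limit for a count of 0. The upper Clopper-Pearson bounds were 0.0683%, 0.0661% and 0.0693%. For *ALDH1A2* (chromosome 1), AT and BM gave 3 UMIs each and PB gave 1. Of the *ALDH1A* genes with a row, *ALDH1A3* was therefore the only one past 1 CPM in any source.

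**Figure D1:**
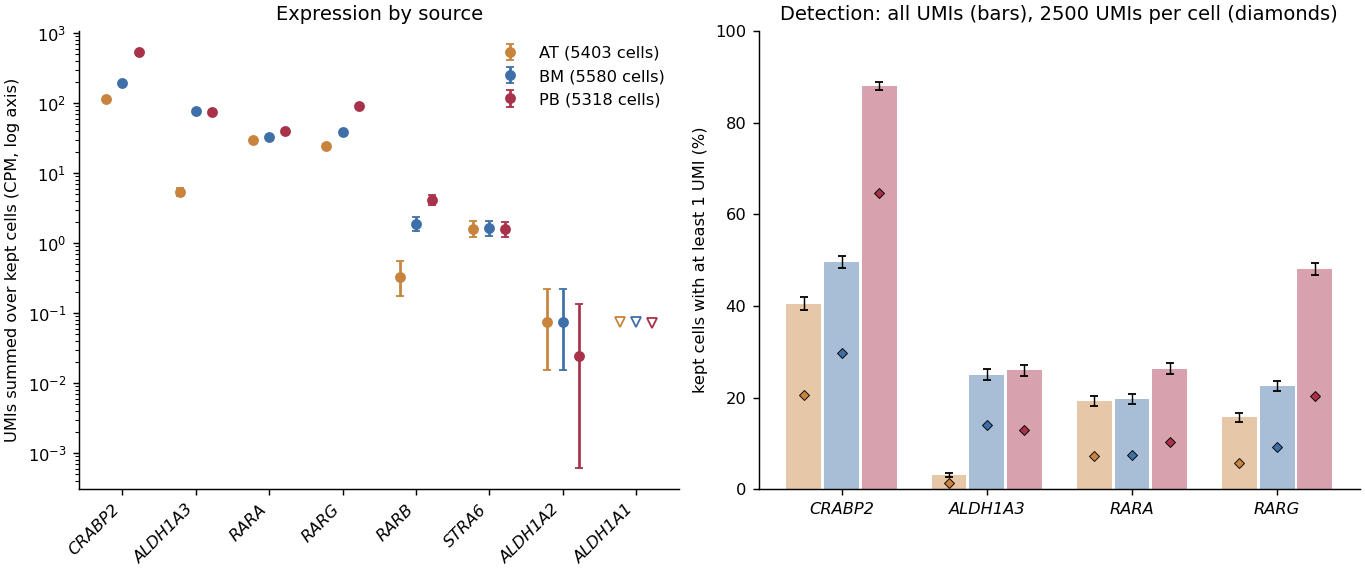
Left, expression of the 8 members with a row in AT-, BM- and PB-derived MSCs as UMIs summed over kept cells in CPM on a log axis, with 95% Poisson intervals; open triangles stand for 3 UMIs where no UMI was counted. Right, share of kept cells with at least 1 UMI of 4 members, as bars with 95% Clopper-Pearson intervals for all UMIs and as diamonds for 2500 UMIs per cell: *CRABP2* reaches 88.1% in PB, and *ALDH1A3* is at 25% in BM, 25.9% in PB and 3.09% in AT.

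The receptors differed in their patterns. *RARG* (chromosome 6, reverse strand) had 24.3 CPM (22.8 to 25.9) in AT-, 38.7 CPM (36.8 to 40.6) in BM- and 92.2 CPM (89.3 to 95.2) in PB-derived MSCs, the same order as *CRABP2*. PB exceeded BM 2.38-fold (2.25 to 2.53) and AT 3.79-fold (3.53 to 4.07). *RARA* (chromosome 11, reverse strand), the broadly expressed receptor gene, varied less, at 29.3 CPM (27.7 to 31.0), 32.3 CPM (30.5 to 34.1) and 40.3 CPM (38.4 to 42.2). *RARB* (chromosome 16, reverse strand), itself a classical target of retinoic acid receptors, was scarce. It totalled 13 UMIs for AT, 75 for BM and 172 for PB, or 0.325 CPM (0.173 to 0.556), 1.86 CPM (1.47 to 2.34) and 4.13 CPM (3.54 to 4.80). Its ratio of PB over BM was 2.22 (1.68 to 2.95), and of PB over AT 12.7 (7.24 to 24.4). Every receptor gene thus had its highest level in PB, and only for *RARA* did the AT and BM intervals overlap.

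Summed over the 3 receptor genes, expression was 54.0 CPM in AT-, 72.8 CPM in BM- and 137 CPM in PB-derived MSCs. *RARG* took 45.1% (43.0 to 47.2%) of these UMIs in AT, 53.1% (51.3 to 54.9%) in BM and 67.5% (66.3 to 68.7%) in PB. The share of *RARA* was 54.3%, 44.3% and 29.5%, and that of *RARB* 0.602%, 2.56% and 3.02%. The share of *RARG* therefore rose in the order AT, BM, PB, although *RARA* itself was 1.37-fold (1.27 to 1.48) higher in PB than in AT, in counts of 3′ ends that are not corrected for capture differences between genes.

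**Figure D2:**
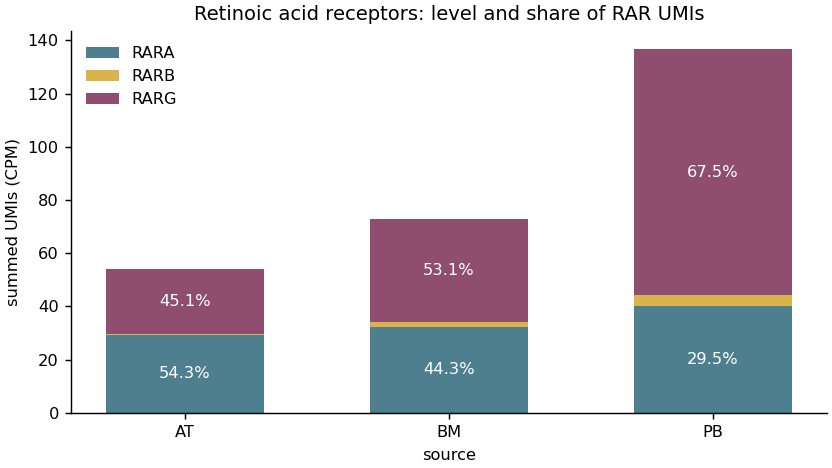
UMIs of *RARA*, *RARB* and *RARG* summed over kept cells in CPM for each source, stacked, with the share of all receptor UMIs written in the larger segments. The stack rises from 54.0 CPM in AT to 137 CPM in PB, and the *RARG* segment from 45.1% to 67.5%.

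*STRA6*, the receptor for retinol bound to its plasma carrier (chromosome 1, forward strand), was low and level, with 64, 66 and 66 UMIs in AT, BM and PB. This was 1.60 CPM (1.23 to 2.04), 1.64 CPM (1.27 to 2.09) and 1.59 CPM (1.23 to 2.02), and between 61 and 66 cells of each source had a UMI. The ratio of PB over BM was 0.97, with an interval of 0.68 to 1.38.

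To set the members beside other genes, differences of log2(CPM + 1) were taken over the 11479 genes with a mean of at least 1 CPM over the sources, and a gene was called where it passed 2-fold. *ALDH1A1* and *ALDH1A2* were below this filter, which the remaining 6 members passed, *RARB* through its levels in BM and PB. Of these, *CRABP2*, *ALDH1A3*, *RARB* and *RARG* were at least 2-fold higher in PB than in AT, as were 5.98% of all genes tested. The call of *RARB* was lost with a pseudocount of 5 or 25 CPM, and its call in BM over AT also with the lower limit at 500 UMIs (0.90). In PB over BM, *CRABP2* (log2 ratio 1.46) and *RARG* (1.23) passed, as did 2.33% of genes, and *RARB* (0.84) lay just under the limit. In BM over AT, *ALDH1A3* (3.62) and *RARB* (1.11) passed beside 8.45% of genes, with *CRABP2* at 0.73 and *RARG* at 0.65. No member was 2-fold lower in any of these comparisons, where the shares of all genes were 4.42% in PB against AT, 5.94% in PB against BM and 2.57% in BM against AT. Because the members were chosen with these differences known, and the comparisons share libraries, the counts are a description.

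The median log2 ratio of all genes tested was 0.04 for PB over AT, -0.20 for PB over BM and 0.24 for BM over AT. TMM scaling moved these medians by -0.04, 0.22 and -0.26. With it *RARB* also passed 2-fold, just, in PB over BM and no longer in BM over AT, and the small difference of *RARA* between BM and AT changed sign, from 0.13 to -0.14. *CRABP2* then stood at 1.70 in PB over BM, and *ALDH1A3* at 0.20. Members at least 2-fold higher in PB than BM then numbered 3 of 6, beside 3.33% of all genes with this scaling.

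A wider list of 43 retinoid genes was examined alongside, of which 39 had a row and 23 passed the filter. Of these 23, 3 were at least 2-fold higher and 2 lower in PB than AT, none was higher and 4 were lower in PB than BM, and 6 were higher and none lower in BM than AT. Of all genes, 5.98% were higher and 4.42% lower in PB than AT, 2.33% and 5.94% in PB than BM, and 8.45% and 2.57% in BM than AT. The numbers of the list include *TGM2* among the genes higher in PB and in BM than AT, which passed the filter through its levels in BM and PB. With TMM scaling the numbers were 3 and 2, 1 and 2, and 5 and 0, where all genes gave 5.81% and 4.69%, 3.33% and 4.05%, and 5.93% and 3.96%. The list was drawn with results of these data known, so its counts are a description. Its median log2 ratio was 0.08 for PB over AT, -0.24 for PB over BM and 0.16 for BM over AT, near those of all genes.

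Among the short-chain dehydrogenases, *DHRS3*, a retinaldehyde reductase that is known to be induced by retinoic acid, had the same order of sources as *CRABP2* and *RARG*. It had 5.03 CPM (4.36 to 5.77) in AT-, 18.7 CPM (17.4 to 20.1) in BM- and 34.8 CPM (33.0 to 36.6) in PB-derived MSCs, and was detected in 3.57%, 12.0% and 21.4% of cells. *DHRS9*, a retinol dehydrogenase, was highest in BM instead, at 1.60, 20.1 and 8.07 CPM. *RDH13* was also highest in BM, at 3.48, 9.0 and 4.61 CPM. The remaining oxidoreductases with at least 1 CPM, *RDH5*, *RDH10*, *RDH11*, *RDH14* and *SDR16C5*, stayed within 2-fold in every comparison, *RDH14* at 45.6, 40.6 and 32.6 CPM, *SDR16C5* at 11.0, 21.6 and 19.8 CPM and *RDH11* at 15.1, 9.47 and 13.9 CPM.

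The genes that clear or store retinoids were scarcely detected. *CYP26A1* had 2, 3 and 0 UMIs in AT, BM and PB, *CYP26C1* 3, 6 and 0, and *CYP26B1* 0, 26 and 8. *LRAT*, which esterifies retinol for storage, had 1 UMI in PB and none in AT or BM. Of the retinol carriers, *RBP2* and *RBP4* and the plasma partner *TTR* had no UMI in any kept cell. Where no UMI was counted, low expression cannot be told from absence at this depth, while *CYP26B1* in BM stood at 0.646 CPM (0.422 to 0.947), in 25 cells.

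FABP5 is the alternative carrier that takes retinoic acid to the receptor PPARD. *FABP5* had 28.7 CPM (27.1 to 30.4) in AT-, 79.0 CPM (76.3 to 81.8) in BM- and 20.1 CPM (18.8 to 21.5) in PB-derived MSCs, so it was lowest where *CRABP2* was highest. *PPARD* had 5.23, 5.64 and 7.16 CPM. The ratio of *CRABP2* to *FABP5* levels was not formed, since the efficiency of capture differs between genes.

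The RXR partners and coregulators moved little. *RXRB* had 13.1, 11.0 and 11.0 CPM, *RXRA* 1.98, 2.58 and 2.45 CPM, and no *RXRG* UMI was counted. All 6 coregulators stayed within 2-fold in every comparison, among them the corepressor gene *NCOR1* at 45.5, 45.9 and 43.0 CPM.

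Of the 7 genes listed as retinoid-responsive, 5 passed the filter, and they went in different directions. *RARRES1*, named for its induction by retinoids, had 139 CPM (136 to 143) in AT-, 481 CPM (475 to 488) in BM- and 63.1 CPM (60.7 to 65.6) in PB-derived MSCs, the lowest level standing in PB. *RARRES2*, the gene of the chemoattractant chemerin, had 418, 467 and 293 CPM. *MEIS2*, a homeobox cofactor gene, fell in the order AT, BM, PB, at 16.4, 11.9 and 4.61 CPM. *TGM2*, the gene of tissue transglutaminase, was counted once in AT (1 UMI), against 57 UMIs for BM and 93 for PB, or 0.0250, 1.42 and 2.23 CPM. *MEIS1* stayed within 2-fold at 4.28, 7.28 and 5.53 CPM.

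**Figure D3:**
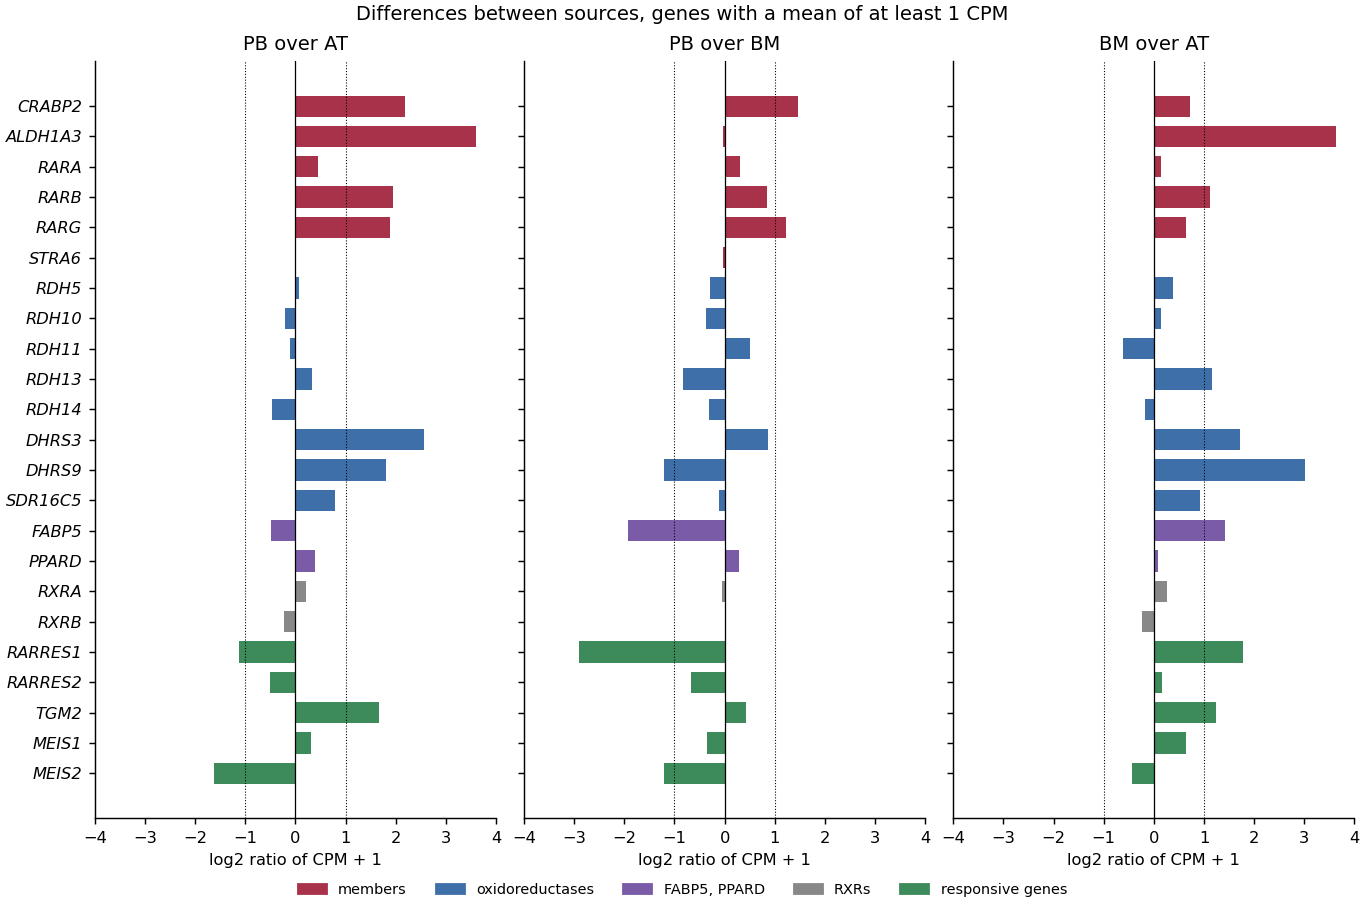
Log2 ratios of CPM + 1 between sources for the 6 members and the genes of the wider list other than coregulators with a mean of at least 1 CPM, coloured by role; dotted lines mark 2-fold. No member bar passes the lower line, whereas *RARRES1*, *MEIS2*, *FABP5* and *DHRS9* pass it in PB over BM.

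Within a source, *CRABP2* and *ALDH1A3* varied more between cells, relative to their mean, than most genes with at least 50 CPM, a set not matched on level and well above *ALDH1A3* in AT. At 2500 UMIs per cell the variance of *CRABP2* was 1.35, 1.78 and 1.54 times its mean in AT, BM and PB, and that of *ALDH1A3* was 1.22, 2.24 and 1.70 times. The median of this ratio over genes with at least 50 CPM was 1.04, 1.05 and 1.04. Poisson intervals within a source therefore understate the spread among cells for both genes.

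Co-detection asks whether the carrier and the enzyme were found in the same cells more or less often than depth alone gives. Cells were ranked by total UMIs into 10 classes of depth, and the expected number with both genes was summed over the classes. Intervals of these ratios take the number of cells with both as a Poisson count and the expected number as fixed. They are wider than the given numbers of positive cells allow, so an interval that holds 1 does not show independence. In BM 627 cells had both against 690 expected, a ratio of 0.91 (0.84 to 0.98). In PB 1221 cells had both against 1237 expected (0.99, 0.93 to 1.04), and in AT 64 against 70.7 (0.91, 0.70 to 1.16). With at least 2 UMIs of each gene required, the ratio was 0.72 (0.60 to 0.85) in BM, 0.94 (0.86 to 1.03) in PB and 0.40 (0.08 to 1.15) in AT, the last on 3 cells. *ALDH1A3* and *CRABP2* were thus found together less often than depth gave in BM, while the PB and AT intervals held 1, and the difference between sources was not tested. Since 88.1% of PB cells had *CRABP2*, the numbers of positive cells allowed the PB ratio to lie only between 0.72 and 1.11, against 0 and 2.02 in BM, and the ratios of these sources cannot be set against each other. The BM interval, wide as stated, also held 1 within rebuilt clusters and 5 classes of depth (0.94, 0.87 to 1.02), a setting added after seeing the data. The same was so in G1 cells alone (0.92, 0.84 to 1.01).

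The level of *CRABP2* was lower in cells with *ALDH1A3* UMIs than in cells without in BM and PB. In BM, cells with 0, 1, 2 and at least 3 *ALDH1A3* UMIs had 202 CPM (197 to 207), 180 CPM (169 to 192), 165 CPM (148 to 184) and 103 CPM (90.7 to 116) of *CRABP2*. In PB these classes had 553 CPM (545 to 562), 493 CPM (475 to 510.3), 422 CPM (395 to 450.0) and 437 CPM (414 to 460.3). In AT they had 115 CPM (112 to 119), 104 CPM (85.1 to 125), 65.6 CPM (35.0 to 112.2) and 27.1 CPM (3.28 to 97.8), the last classes holding 25 and 9 cells. Cells without *ALDH1A3* had the highest *CRABP2* in BM and PB, and in PB the intervals of the last pair of classes overlapped. In AT the intervals of the first pair of classes overlapped, and the lower values rest on 13 and 2 *CRABP2* UMIs.

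Depth moved with these classes, since the median total of a cell rose from 7541 UMIs without *ALDH1A3* to 8838.5 with at least 3 UMIs in PB. Set against cells of the same depth class, the class with at least 3 *ALDH1A3* UMIs had 0.54 times (0.48 to 0.61) the expected *CRABP2* UMIs in BM and 0.85 times (0.81 to 0.90) in PB. Conversely, cells with at least 6 *CRABP2* UMIs had 0.49 times (0.39 to 0.60) the expected *ALDH1A3* UMIs in BM and 0.85 times (0.80 to 0.91) in PB. In AT the first of these ratios was 0.24 (0.03 to 0.86), on 2 *CRABP2* UMIs in 9 cells. The second was 0.71 (0.15 to 2.08), on 3 *ALDH1A3* UMIs. *RARG* UMIs in the highest *ALDH1A3* class were 1.04 times (0.93 to 1.16) those expected in PB, but 1.55 times (1.31 to 1.82) in BM. From the lowest to the highest *CRABP2* class they were 0.87, 0.97, 1.07 and 0.99 times in PB and 1.13, 0.96, 0.73 and 0.84 times in BM. *DHRS3* in PB rose with *CRABP2*, from 0.69 times (0.56 to 0.85) the expected UMIs in cells without *CRABP2* to 1.16 times (1.06 to 1.26) in cells with at least 6 of its UMIs. No such order was seen in BM (1.05, 1.02, 0.78 and 1.05 times from the lowest to the highest *CRABP2* class) or in AT (0.996, 0.94, 1.21 and 0.97 times). In PB the co-detection ratio of *CRABP2* and *DHRS3*, at 1.03 (0.96 to 1.09), held 1. It could lie only between 0.68 and 1.11, so little can be read from it. Without matching on depth, *DHRS3* in PB had 35.1, 38.2, 33.1 and 26.8 CPM from the lowest to the highest *ALDH1A3* class. The intervals of the first and last of these classes overlapped (33.0 to 37.2 and 21.5 to 33.1 CPM). The co-detection ratio of *ALDH1A3* and *DHRS3* in PB was 1.01 (0.90 to 1.13).

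**Figure D4:**
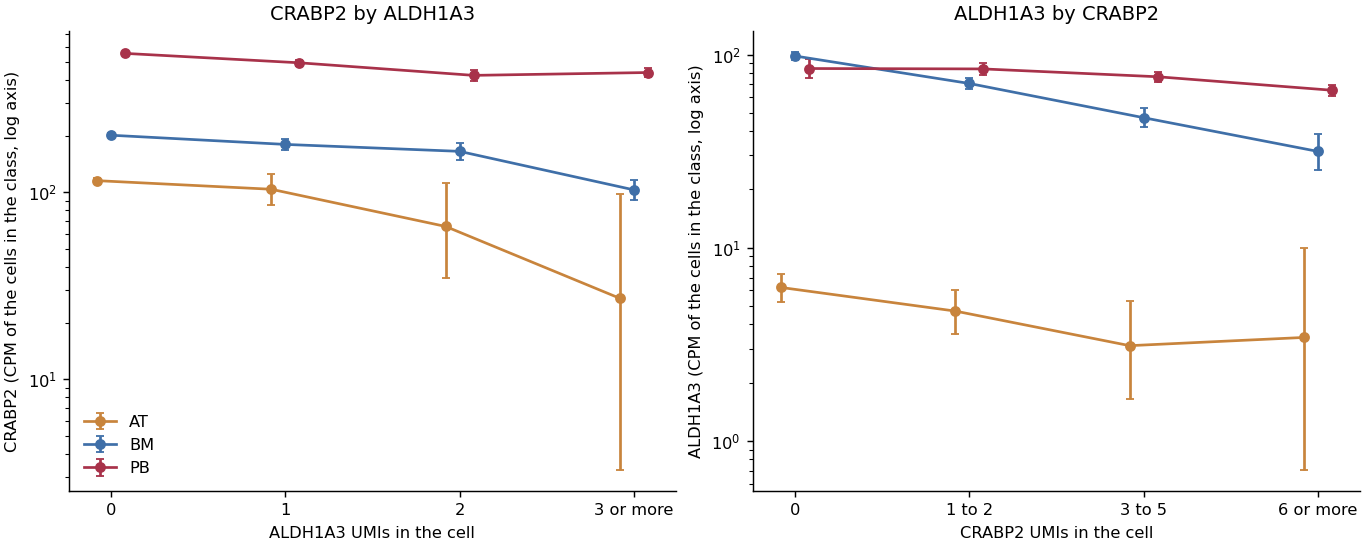
Left, *CRABP2* expression in cells grouped by their *ALDH1A3* UMIs, and right, *ALDH1A3* expression in cells grouped by their *CRABP2* UMIs, in CPM on log axes with 95% Poisson intervals, for each source. *CRABP2* in BM goes from 202 CPM without *ALDH1A3* to 103 CPM with at least 3 of its UMIs.

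The phase of the cell cycle, called with Seurat's marker scores, moved with *ALDH1A3*. In BM, *ALDH1A3* had 102 CPM (98.2 to 106) in G1, 40.9 CPM (36.6 to 45.6) in S and 28.8 CPM (24.97 to 33.1) in G2M cells. In PB it had 85.7, 66.0 and 53.1 CPM, and in AT 5.41, 6.26 and 3.84 CPM. *RARG* in BM showed the same order, at 46.8, 30.3 and 18.6 CPM. *CRABP2* in BM did not, with 177, 229 and 198 CPM. In PB it had 543 CPM (534 to 552) in G1, 541 CPM (525 to 556) in S and 462 CPM (446 to 478) in G2M cells, so only its G2M level stood apart. Within the cells called G1, *CRABP2* was 188 CPM (182 to 195) without and 151 CPM (142 to 160) with *ALDH1A3* in BM, and 572 CPM (561 to 584) against 477 CPM (462 to 493) in PB, so the lower level in *ALDH1A3*-positive cells was also present there. In AT the G1 values were 114 CPM (109 to 118) and 113 CPM (91.5 to 138), so no difference was detectable there. Among G2M cells the intervals overlapped in BM (201 and 182 CPM). They were apart in PB and in AT (119 and 25.3 CPM), the latter on 24 cells with *ALDH1A3*. Among S cells they were apart in BM and PB and overlapped in AT.

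Clusters were rebuilt in each source with the members left out of the variable genes, which gave 7 AT, 7 BM and 10 PB clusters. In AT, *CRABP2* ranged only from 93.4 to 135 CPM and *ALDH1A3* from 1.72 to 10.0 CPM. In BM, *CRABP2* ranged from 85.8 to 297 CPM and *ALDH1A3* from 4.38 to 160 CPM. In PB, *CRABP2* ranged from 252 to 822 CPM and *ALDH1A3* from 26.3 to 429 CPM. Since clusters were made from the same cells, and the genes that define them can carry the members with them, these ranges are a description. Clusters made on a random part of the UMIs and measured in the UMIs held out gave ranges for *ALDH1A3* of 3.63 to 140 CPM in BM and 33.2 to 435 CPM in PB. At a resolution of 0.4 the PB clusters numbered 7 and *ALDH1A3* reached only 218 CPM, against 413 CPM at 0.8 and 437 CPM without cell cycle regression, and the highest of 429 CPM rests on a cluster of 39 cells. In BM the highest was 128, 173 and 193 CPM under these settings, and *CRABP2* in PB peaked between 824 and 859 CPM.

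In BM the largest cluster, 1771 cells led by *C15H2orf40*, *DPT* and *INSC*, had the lowest *CRABP2* of that source (85.8 CPM, 80.6 to 91.2) with *ALDH1A3* at 128 CPM (122 to 135) and the highest *RARG* (62.3 CPM, 57.9 to 66.9). A BM cluster of 653 cells led by ENSECAG00000031731, *CALCA* and *EMB* had the reverse, with *CRABP2* at 250.0 CPM (238 to 263), *ALDH1A3* at 4.38 CPM (2.89 to 6.37) and *RARG* at 12.2 CPM (9.57 to 15.2). Of its cells 90.7% were called S or G2M, against 7.45% of the former cluster. Such an opposition was not seen in every BM cluster. The highest *ALDH1A3* of the source, 160 CPM (145 to 176), stood in a cluster of 413 cells. That cluster had *CRABP2* at 192 CPM (175 to 210), against 191 CPM in the other BM cells. A cluster of 1521 cells had *CRABP2* at 253 CPM (244 to 263) with *ALDH1A3* at 72.6 CPM (67.4 to 78.1). The BM clusters led by cell cycle genes, of 746 and 373 cells with 82.3% and 69.97% in S or G2M, had *ALDH1A3* at 41.7 and 43.3 CPM, with intervals far from that of the *CALCA* cluster.

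*STRA6* in BM was concentrated where *RARG* was highest. The *DPT* cluster held 48 of the 66 *STRA6* UMIs of that source, or 4.002 CPM (2.95 to 5.31), while the other BM clusters had 0 to 11 UMIs each. It also held 40 of the 75 *RARB* UMIs, or 3.33 CPM (2.38 to 4.54), but on 10 UMIs the BM cluster of 413 cells had 4.04 CPM (1.94 to 7.43) of *RARB*, with *RARG* at 34.7 CPM. *RARA* stood at 32.9 CPM (29.8 to 36.3) in the *DPT* cluster, and between 23.7 and 37.9 CPM over the BM clusters. Across BM cells, *STRA6* was found with *RARG* 1.68 times (1.10 to 2.46) and with *ALDH1A3* 1.58 times (1.03 to 2.31) as often as depth gave, and with *CRABP2* 0.55 times (0.33 to 0.87), on 26, 26 and 19 cells. In AT and PB each of these intervals held 1. For *CRABP2* and *RARG* the ratio was 0.89 (0.82 to 0.97) in BM, 0.95 (0.85 to 1.05) in AT and 1.02 (0.97 to 1.06) in PB. The PB ratio could lie only between 0.88 and 1.11, against 0 and 1.96 in BM, so the sources cannot be set against each other.

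In PB, *ALDH1A3* was highest in the clusters led by inflammatory genes. The cluster of 388 cells led by *CCL2*, *CCL7* and *SOD2* had 195 CPM (179 to 212), and that of 39 cells led by *CXCL10* and *GBP5* had 429 CPM (357 to 511), on 125 UMIs. *CRABP2* stood at 605 CPM and 426 CPM there, on either side of the source's 528 CPM. It was highest instead in a cluster of 375 cells led by ENSECAG00000032733, *PIGK* and *LAMP2* (814 CPM, 783 to 846) and in one of 150 cells led by *CEP128*, *NDUFA4L2* and *SFRP1* (822 CPM, 768 to 878), the latter with the lowest *ALDH1A3* of the source at 26.3 CPM (17.5 to 38.0). *CRABP2* was lowest, at 252 CPM (237 to 268), in the cluster of 394 cells led by *UHRF1* and *CDK1*, where 94.4% of cells were called S or G2M, and *RARG* was lowest there too, at 49.2 CPM (42.7 to 56.4).

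Inside single clusters, *CRABP2* was lower in cells with an *ALDH1A3* UMI than in cells without one in 6 of the 7 AT clusters, 6 of the 7 BM clusters and 9 of the 10 PB clusters, with intervals that did not overlap in 0, 4 and 5 of them. It was higher with separate intervals in none. The co-detection ratio within clusters and depth classes, 0.94 in BM, was 0.92 (0.71 to 1.18) in AT and 0.99 (0.94 to 1.05) in PB.

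**Figure D5:**
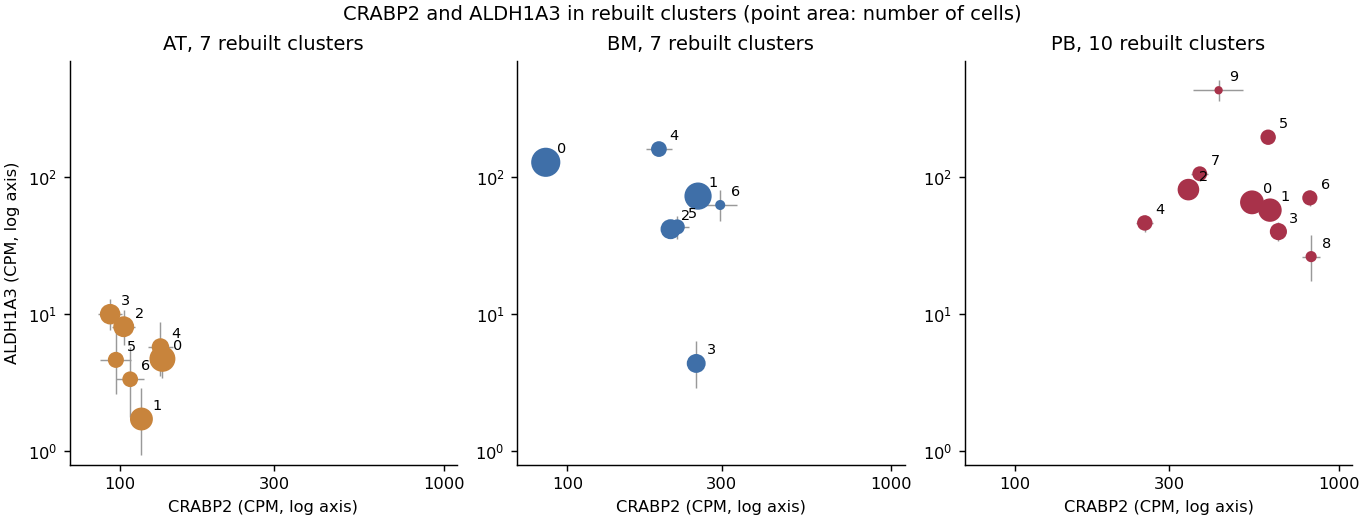
*CRABP2* against *ALDH1A3* in the rebuilt clusters of each source, in CPM on log axes with 95% Poisson intervals, numbered as rebuilt, with point area giving the number of cells. BM cluster 0 lies at 85.8 and 128 CPM, BM cluster 3 at 250.0 and 4.38 CPM and BM cluster 4 at 192 and 160 CPM.

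Inflammatory and interferon genes were set beside both genes by the same measure. Their lists were drawn on these same libraries, in clusters where *ALDH1A3* was also listed, so ratios with *ALDH1A3* are no independent evidence. In PB, *ALDH1A3* was found together with the chemokine gene *CCL7* 1.37 times (1.25 to 1.5004) as often as depth alone gave, with the mitochondrial superoxide dismutase gene *SOD2* 1.21 times (1.11 to 1.33), with the interferon-induced GTPase gene *GBP1* 1.57 times (1.30 to 1.88) and with the transcription factor gene *IRF1* 1.16 times (1.01 to 1.33). The ratios with *CCL2*, *IER3*, *NFKBIA*, *ISG15* and *PSMB9* had intervals that held 1, which at the width of these intervals does not show independence. In BM the ratio was 1.26 (1.11 to 1.44) with *CCL7*, 0.79 (0.62 to 0.98) with *PSMB9* and between 0.66 and 1.07 with the others, all with intervals holding 1. For *CRABP2*, each of these intervals held 1 in BM and in PB, but in PB, where most cells had the gene, the highest ratio possible was 1.10 to 1.12, so little can be read from them.

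Without matching on depth, the retinoid-responsive *RARRES1* fell with *CRABP2* in BM, where the highest level stood in cells without the carrier. It had 492, 487, 463 and 430.3 CPM in cells with 0, 1 to 2, 3 to 5 and at least 6 *CRABP2* UMIs. The BM intervals of the first and last class were apart (482 to 502 and 406 to 456 CPM). Between these classes *RARRES1* went from 78.4 to 60.2 CPM in PB and from 142 to 94.8 CPM in AT. The AT classes between them had 138.5 and 138.6 CPM of *RARRES1*, and the last class held 83 of its UMIs. By *ALDH1A3* UMIs it had 453 CPM (446 to 461) in BM cells with none, 568 CPM (549 to 589) with 1, 624 CPM (591 to 659.6) with 2 and 516 CPM (488 to 546) with at least 3. In PB these were 61.3, 59.7, 75.9 and 77.8 CPM. With depth taken into account, the co-detection ratio of *RARRES1* and *CRABP2* was 1.01 (0.97 to 1.05) in BM. It was 0.99 (0.94 to 1.04) in PB and 0.99 (0.93 to 1.04) in AT, so each interval held 1. *RARRES1* had a UMI in 89.6% of BM cells and *CRABP2* in 88.1% of PB cells, so little can be read from those ratios. With *ALDH1A3* the ratio of *RARRES1* was 1.03 (0.97 to 1.08) in BM.

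*FABP5*, in contrast, was found with *ALDH1A3* 0.76 times (0.68 to 0.86) as often as depth gave in BM, 0.77 times (0.63 to 0.92) in PB and, on 11 cells, 0.48 times (0.24 to 0.87) in AT. With *CRABP2* its ratio was 1.08 (1.01 to 1.15) in BM and 0.94 (0.85 to 1.03) in PB, where it could not exceed 1.09.

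Counted by role, a UMI of *CRABP2*, of *ALDH1A3* and of any receptor together was found in 0.481% (0.315 to 0.704%) of the AT-, 4.44% (3.92 to 5.02%) of the BM- and 14.8% (13.9 to 15.8%) of PB-derived MSCs. At 2500 UMIs per cell it was found in 0.0740%, 0.591% and 2.56%. *CRABP2* with any receptor was found in 13.6%, 18.5% and 55.9% of cells, and at 2500 UMIs in 2.41%, 4.12% and 19.1%. None of the 3 roles was detected in 40.1%, 22.3% and 4.61% of cells, shares that depend on depth and count missed transcripts as absent.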

How the data were processed

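The authors assigned reads to barcodes with Cell Ranger and mapped them to EquCab3.0 (both also in the submitters' processing notes), and counted UMIs per gene with ESAT, which also takes reads just past the annotated 3′ end of a gene and leaves out overlapping gene intervals. The deposited values are raw UMI counts (whole numbers) for every gene and barcode of 1 library per source. Per the labels, groups are the tissue sources. The members and all gene lists were chosen with earlier results of these data known.

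From these counts, kept barcodes had 2500 to 15000 UMIs and at most 3% mitochondrial UMIs, and UMIs were summed over kept cells as CPM. Ratios of sums carry exact conditional binomial intervals, co-detection ratios carry Poisson intervals of the cells with both, and 2-fold calls used log2(CPM + 1). The study removed multiplets with DoubletDetection and took barcodes over the upper limit as putative doublets; the sources used here do not say whether the deposited matrices precede that removal. Clusters used Seurat 5.3.0 and sctransform 0.4.2 (R 4.3.3) with 3000 variable genes less the members, regression of mitochondrial percentage and the cell cycle difference, resolution 0.6, and the first 14 (AT), 23 (BM) and 20 (PB) principal components. A cluster is identified by its 3 leading genes by fold, some left unnamed here. SciPy 1.17.1 gave the intervals, edgeR 4.0.16 TMM factors only, and Scanpy 1.11.5 the Scrublet scores. The arithmetic was tested on simulated data. Named genes were the members, genes of the wider list that reached 10 CPM in any source or passed 2-fold, the companion genes, and the 5 genes most correlated with each of *CRABP2* and *ALDH1A3* in PB. *MEIS1*, *PPARD*, *RXRA*, *RDH5*, *RDH10* and the scarce genes of uptake, storage and clearance were named outside this rule, after their values were seen, and a few genes under the rule are not reported here. Alternatives were thinning to 2500 UMIs, other UMI and mitochondrial limits, leaving out shared barcodes or high Scrublet scores, G1 cells only, means of single-cell CPM, TMM factors, other pseudocounts, folds and filters, and other cluster settings. No sequence is shown, since no genome of the build used was at hand.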

Additional observations from a re-analysis of the deposited data

Results flagged for a closer look

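The AT barcodes below 2500 UMIs that the PB matrix also held, which are not among the kept cells, carried the members at PB-like levels. In these 5711 barcodes with 4918153 UMIs, *CRABP2* had 517 CPM (497 to 537), *ALDH1A3* 74.0 CPM (66.6 to 82.0) and *RARG* 90.9 CPM (82.7 to 99.7), against 115, 5.35 and 24.3 CPM in the kept AT cells and 528, 75.7 and 92.2 CPM in the kept PB cells. The 444 low AT barcodes that were not in the PB matrix had 77.0 CPM (56.5 to 102) of *CRABP2*, 14.7 CPM (6.74 to 28.0) of *ALDH1A3* and 24.6 CPM (13.7 to 40.5) of *RARG*. These values were singled out because they are a signal in barcodes outside the kept cells. Of the 5711, 4804 entered the alternative with a lower limit of 500 UMIs. How the RNA came to these barcodes was not tested.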

How the results depend on the processing

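No paired analysis was possible because each source had 1 library. The log2 ratio of *CRABP2* in PB over BM (1.46) was 1.42 without an upper UMI limit, 1.61 in G1 cells, 1.70 with TMM factors and 1.36 with a pseudocount of 25 CPM. That of *ALDH1A3* (-0.03) was -0.24 after thinning, -0.25 in G1 cells, -0.18 as a mean of single-cell CPM and 0.20 with TMM factors. Counts of members past the fold stand here beside the share of all genes called under the same setting. Members higher in PB than AT (4) were 3 with a pseudocount of 5 CPM (3.04% of all genes) or 25 CPM (0.941%), where *RARB* fell from 1.95 to 0.78 and 0.20, and 3 with a mean of at least 10 CPM (5.01%), which *RARB* did not reach. Members higher in PB than BM (2) were 1 with a pseudocount of 25 CPM (0.314%) and 0 at 3-fold (0.923%), but 3 with TMM factors (3.33%) and at 1.5-fold (5.36%). Members higher in BM than AT (2) were 1 with barcodes of 500 to 15000 UMIs (7.34%), TMM factors (5.93%), pseudocounts of 5 CPM (4.3%) or 25 CPM (1.32%), 3-fold (3.51%) or a mean of at least 10 CPM (7.19%), and 4 at 1.5-fold (22%). The co-detection ratio was 0.72 in BM and 0.40 in AT with at least 2 UMIs, and 0.81 in BM after thinning. The cause of these moves was not tested, apart from those a threshold itself makes. No called difference changed sign under any of the alternatives run. Lowering the limit to 500 UMIs in all 3 libraries at once lowered the log2 ratios of *ALDH1A3* in PB over AT from 3.59 to 2.52 and in BM over AT from 3.62 to 2.57, and those of *CRABP2* from 2.19 to 1.75 and from 0.73 to 0.29. The lowest values of *ALDH1A3*, 1.73 in PB over AT and 1.75 in BM over AT, came with a pseudocount of 25 CPM.

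The results rest on 1 animal and 1 library per source, so the spread between animals or cultures cannot be estimated from them, and source, culture and library cannot be told apart. Intervals cover counting error, and UMIs of a cell are not independent. Low genes such as *ALDH1A2* and the *CYP26* genes are limited by depth.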

Other observations

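Over the 5318 PB-derived cells, the genes whose log2(UMIs per 10000 + 1) correlated most with *CRABP2*, out of 2811 genes detected in 25% or more of them, were *LUM* (Pearson r 0.41), *DCN* (0.33), *S100A4* (0.32), *LGALS1* (0.31) and *B2M* (0.30), where the median gene had 0.02. These genes were abundant in PB, from 1144 CPM (*DCN*) to 11827 CPM (*LGALS1*), and the genes behind the median were not matched on level. *LUM* and *DCN* encode small leucine-rich proteoglycans of the collagen matrix. In BM the same genes had r of 0.02, 0.07, 0.05, 0.08 and -0.10, and in AT between 0.08 and 0.09. *CRABP2* itself had 191 CPM in BM and 115 CPM in AT against 528 CPM in PB, and r was not corrected for level. For *ALDH1A3* in PB the leading genes were *SOD2* (0.21), *FTL* (0.16), *CA2* (0.16), *PHLDA2* (0.14) and *CASP4* (0.14), and in BM *FTL* had 0.20 and *SOD2* 0.04. Cells of a library share depth and ambient RNA, so these values are a description of the libraries.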
